A study of Mus musculus with 6 samples.

Results

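Chromatin accessibility was examined at 9 genes that mark injured and incompletely repaired kidney tubules: Havcr1, Vcam1, Prom1, Lcn2, Spp1, Clu, Sox9, Cdkn1a and Dcdc2a. They were chosen by name as an injury set and not by a limit on their signal, though with earlier results of these data known, out of 21757 protein-coding genes in the annotation. For each gene, every accessible interval that overlapped the stretch from 3 kb upstream of the gene start to the gene end was taken, which gave 151 of the 279569 intervals of the deposited list. The nuclei came from kidney cortex, and no age is stated for the mice of these libraries in the sources used here. The libraries were 3 from WT mice and 3 from Acly cKO mice. In the latter, Acly fl/fl was combined with Ksp-Cre (Cdh16-Cre), a driver active across proximal tubule, distal tubule and collecting duct. The paper names Acly fl/fl littermates without Cre as its controls, while the labels of these libraries say only WT. All 6 libraries carry the treatment label Control, so none is labelled as coming from an injured kidney, although the series describes its question as one about injury. WT libraries belong to batches 1 and 2 and Acly cKO libraries to batches 4 and 5, and the paper counts additional WT libraries whose presence in the pool the files do not show. A single pooled call was deposited, with no column for any library. WT and Acly cKO kidneys were therefore not compared at these genes, no value has a replicate error, and the depth of each library is unknown.

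Injury of the tubule epithelium switches on genes that the resting cell uses little. Some encode surface receptors and adhesion molecules, such as Havcr1 (KIM-1, which lets tubule cells engulf dying neighbours) and Vcam1. Others encode secreted proteins that reach the urine, such as Lcn2 (NGAL), or act in the nucleus, such as the transcription factor Sox9 and the cell cycle inhibitor Cdkn1a (p21). Accessible promoters and enhancers are where transcription factors can bind. ATAC-seq marks them by the insertion of adapters by the Tn5 transposase, and an accessible promoter is not by itself evidence of transcription. In whole cortex, many weakly open cells and a few strongly open cells cannot be told apart.

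All 9 genes had an accessible interval at the promoter, defined as within 1 kb of the canonical transcription start site (TSS). That was the case for 75.8% of all protein-coding genes. In each of the 9 the promoter interval reached a fold enrichment of at least 5 over the background, against 66.2% of all genes. In 7 of the 9 the promoter interval was also the strongest interval of the gene, a share close to the 70.1% among the 18102 genes with any interval. The exceptions were Havcr1 and Dcdc2a. The median fold enrichment of the promoter intervals was 28.2 in the injury genes and 30.1 over all genes with a promoter interval.

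Sequences at or near the main summits, read from the GRCm39 genome in the direction of each gene, show the AP-1 and NF-kB matches and the letters around summits that lacked them. Up to 101 bases centred on the summit are given where the summit lies outside exons, cut at the exon, and 29 bases, centred on the nearest AP-1 or NF-kB match, where it lies inside an exon of a protein-coding gene. The stretches of 29 bases at Prom1, Clu, Cdkn1a and Vcam1 do not reach the summit itself. Capitals mark matches to the motifs searched.

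The strongest interval of 5 genes held an AP-1 match (TGANTCA) within 100 bp of its summit, and these matches are shown here.
Havcr1, chr11:46637037-46637137, plus strand: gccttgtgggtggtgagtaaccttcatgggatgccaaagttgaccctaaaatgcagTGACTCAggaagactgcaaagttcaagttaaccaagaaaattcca
Prom1, chr5:44259149-44259177, minus strand: tcccgtggtccTGACTCAggcacccttag
Clu, chr14:66205998-66206026, plus strand: ttctctgggcgTGAGTCAcgcaggtttgc
Sox9, chr11:112672911-112673008, plus strand: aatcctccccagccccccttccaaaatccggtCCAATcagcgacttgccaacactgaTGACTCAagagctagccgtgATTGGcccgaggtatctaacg
Cdkn1a, chr17:29314535-29314563, plus strand: gggcaggaaacTGACTCAccactccttgc
In the Sox9 stretch the capitals also mark a pair of CCAAT boxes that flank the AP-1 match, on opposite strands. At Prom1 and Cdkn1a matches to other motifs lay nearer the summit than the AP-1 match. These were CCAAT at 183 to 187 bp and SP/KLF at 156 to 161 bp in Prom1, with the summit at 183 bp, and SP/KLF at 1783 to 1788 bp in Cdkn1a, with the summit at 1779 bp.

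The summit of Lcn2 at -201 bp lay inside a match to the NF-kB motif, and that of Vcam1 at 204 bp lay close to one at 180 to 189 bp.
Lcn2, chr2:32277993-32278021, minus strand: caaagccctgGGAATGTCCCtctggtccc
Vcam1, chr3:115923149-115923177, minus strand: tccccttgaaGGGATTTCCCtccgcctct
The capitals in Lcn2 also cover a TEAD match (GGAATG), which overlaps the NF-kB match by all of its bases.

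For contrast, the promoter summits of Havcr1, Cdkn1a and Dcdc2a and the strongest intronic summits of Dcdc2a held neither motif.
Havcr1, chr11:46641191-46641291, plus strand: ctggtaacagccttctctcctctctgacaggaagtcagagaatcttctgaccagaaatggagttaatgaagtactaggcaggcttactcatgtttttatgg
Cdkn1a, chr17:29312651-29312737, plus strand: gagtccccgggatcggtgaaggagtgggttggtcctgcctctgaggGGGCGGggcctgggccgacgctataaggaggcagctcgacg
Dcdc2a, chr13:25239341-25239441, plus strand: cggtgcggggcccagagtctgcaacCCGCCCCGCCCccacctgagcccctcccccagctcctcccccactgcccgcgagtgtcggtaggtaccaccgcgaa
Dcdc2a, chr13:25290859-25290959, plus strand: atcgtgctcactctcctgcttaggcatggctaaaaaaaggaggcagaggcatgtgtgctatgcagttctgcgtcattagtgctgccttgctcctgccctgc
Dcdc2a, chr13:25299642-25299742, plus strand: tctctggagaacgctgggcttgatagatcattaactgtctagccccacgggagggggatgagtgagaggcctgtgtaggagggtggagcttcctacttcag
The capitals at Cdkn1a and Dcdc2a mark SP/KLF matches (GGGCGG), which overlap each other by 1 base at Dcdc2a. The windows of 201 bp around the Havcr1 promoter summit and both intronic Dcdc2a summits held no match to any of the 10 motifs searched. Elsewhere in the same intervals AP-1 matches stood at 667 bp and 720 bp in Havcr1 and at 50233 bp and 60830 bp in Dcdc2a. Other intervals in intron 2 of Dcdc2a did hold an AP-1 match close to the summit. These matches lay at 29884 to 29890 bp, by the summit of 14.9 at 29899 bp, and at 15501 to 15507 bp, by that of 14.2 at 15527 bp.

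The fold enrichment is the pileup of reads at a summit divided by a background of 14.3 reads that was the same along the whole genome, after 1 read is added to both. It moved in steps of 0.0655, each worth 1 read, so the number of reads behind every value could be recovered. Values are given with exact Poisson 95% intervals, which cover counting error only. Reads of all libraries were added together, and differences between mice are not in these intervals. Distances are given from the canonical TSS, with negative values upstream.

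**Figure D1:**
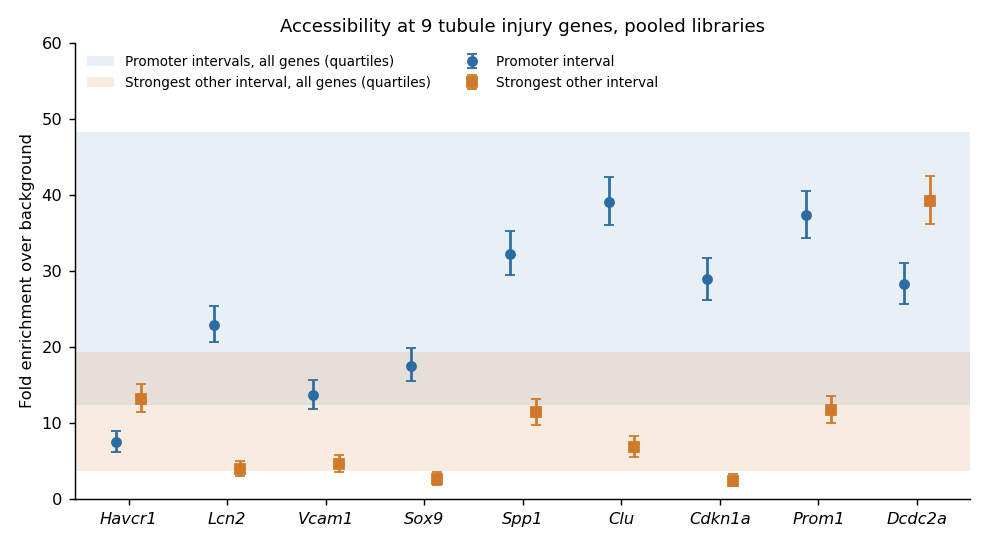
Fold enrichment over background (vertical axis) of the promoter interval (blue circles) and of the strongest other interval (orange squares) of each injury gene; bars are exact Poisson 95% intervals and the shaded bands are the quartiles over all genes with such an interval. Clu, at 39.1, has the highest promoter value and Havcr1, at 7.46, the lowest, and only in Havcr1 and Dcdc2a does the other interval stand above the promoter.

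Among the genes for surface proteins, Havcr1 (ENSMUSG00000040405.14) had the weakest promoter of the 9. Its promoter interval, chr11:46640244-46642623 on the plus strand, peaked at -97 bp with a fold enrichment of 7.46 (6.16 to 8.96, 113 reads), which was at percentile 17.6 of all promoter intervals. The strongest interval of the gene lay upstream of the canonical start, with its summit at -4251 bp and a fold enrichment of 13.2 (11.4 to 15.1, 200 reads). The counting intervals of the upstream summit and the promoter summit did not overlap.

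Further Havcr1 intervals lay upstream of the canonical start, on either side of that summit. An interval with its summit at -2050 bp reached 7.92 (6.58 to 9.46), a level that overlapped that of the promoter, and one with its summit at -15620 bp reached 6.35 (5.16 to 7.74). The latter holds an alternative start of the gene at -15431 bp. No interval covered another alternative start at -10727 bp, and no summit lay within 250 bp of it. In all, 21 intervals were called over the 47499 bp of the Havcr1 region, and 9 of them had their summit upstream of the canonical start. The region begins 3 kb before the start at -15431 bp. It thus reaches further upstream than in Sox9, Spp1 and Dcdc2a, where the canonical start is the gene start. The density of the 21 intervals, 4.42 per 10 kb, was at percentile 86.1 of all genes. Many intervals of modest height thus surrounded a weak promoter.

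Vcam1 (ENSMUSG00000027962.16), an adhesion molecule of cytokine-activated endothelium that also appears on injured proximal tubule cells, had a single strong interval. This interval, chr3:115919572-115924066 on the minus strand, peaked 204 bp downstream of the canonical start with a fold enrichment of 13.6 (11.8 to 15.6, 207 reads), at percentile 26.6 of all promoters. The summit lay just before another annotated start at 241 bp, and a TATAAA match stood between summit and start, at 213 to 218 bp. None of the other 7 intervals of the gene reached a fold enrichment of 5. The strongest of them, in intron 7 at 15000 bp, reached 4.58 (3.58 to 5.78), and those in intron 4 at 7675 bp and 8356 bp both reached 2.88 (2.10 to 3.86). The promoter also overlaps the lncRNA Gm43109, which runs on the opposite strand.

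Prom1 (ENSMUSG00000029086.17), the surface glycoprotein CD133 that marks epithelial progenitor-like cells, had the widest promoter interval of the set, next to Clu in height. It spanned 8993 bp, chr5:44255591-44264583 on the minus strand, with 23 summits. The highest stood at 183 bp with a fold enrichment of 37.3 (34.3 to 40.5, 569 reads), at percentile 60.8 of all promoters. Further summits at 883 bp and 1196 bp reached 29.1 (26.5 to 31.97) and 20.8 (18.6 to 23.2). On the upstream side a summit at -3435 bp reached 28.7 (26.1 to 31.6), as high as that at 883 bp within counting error. The upstream part lies within the noncoding transcript Gm16401 on the opposite strand, and a start of Gm42966 lies within 1 kb of the interval, so the upstream summits cannot be assigned to Prom1 alone.

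The body of Prom1 carried many intervals of low height. Of the 38 intervals of the gene, 37 had their summit in an intron and 22 passed a q of 0.01. The strongest, in intron 1 at 5647 bp, reached 11.7 (10.01 to 13.5), and the next, in intron 5 at 53182 bp and in intron 2 at 29392 bp, reached 4.98 (3.93 to 6.22) and 3.99 (3.06 to 5.12). Transcripts that start at 7186 bp began 19 bp before a summit of 5.04 (3.99 to 6.29). The 6 annotated starts from 34269 bp onward lay in no interval.

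Of the genes for secreted proteins, Lcn2 (ENSMUSG00000026822.15), which encodes the siderophore-binding protein NGAL, was open over most of its length. Its promoter interval, chr2:32274533-32279646 on the minus strand, covered the whole gene, and 88.0% of the Lcn2 region lay inside intervals, at percentile 94.6 of all genes. The median over all genes was 16.7%. The Lcn2 region is short, at 6620 bp with the 3 kb upstream included, and whether its length bears on this share was not tested. The summit at -201 bp reached a fold enrichment of 22.9 (20.6 to 25.4, 349 reads), at percentile 39.3 of all promoters. Of the other 12 summits of that interval none exceeded 4.65 (3.64 to 5.86), so the signal was concentrated at the summit that holds the NF-kB match. Upstream intervals at -3252 bp and -2504 bp reached 3.93 (3.01 to 5.05) and 2.49 (1.77 to 3.40).

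Spp1 (ENSMUSG00000029304.16), or osteopontin, a secreted matrix phosphoprotein that segments of the loop of Henle also make in the healthy kidney, was likewise open over most of its length, with 83.1% of its region in 4 intervals. The promoter interval, chr5:104580498-104583669 on the plus strand, peaked away from the canonical start. Its highest summit, at 773 bp, reached a fold enrichment of 32.2 (29.4 to 35.2, 491 reads), while the summits nearest the canonical start reached 8.97 (7.54 to 10.6) at -64 bp and 12.4 (10.7 to 14.3) at 99 bp. Within the 100 bp that follow the highest summit the annotation places 6 further starts of Spp1, from 819 to 859 bp. The strongest accessibility at Spp1 thus stood at this downstream group of starts and not at the one chosen as canonical, and the counting intervals did not overlap.

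A further Spp1 summit at -1205 bp reached 14.9 (13.1 to 17.0). Beyond the promoter, an interval of 5512 bp that began inside the gene peaked past its end, at 7591 bp, with 11.4 (9.77 to 13.2). An interval in intron 3 at 2893 bp reached 7.86 (6.52 to 9.39), and an upstream interval at -3028 bp reached 2.82 (2.05 to 3.78). The promoter and intron intervals overlap Gm42793, on the same strand.

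Clu (ENSMUSG00000022037.17), the secreted chaperone clusterin, had the highest promoter of the 9. The interval, chr14:66205288-66211218 on the plus strand, peaked at 113 bp in exon 1 with a fold enrichment of 39.1 (36.0 to 42.3, 596 reads), at percentile 63.1 of all promoters. A TATAAA match at 137 to 142 bp lay between this summit and 4 annotated starts from 165 to 194 bp. A separate summit at 2067 bp reached 21.0 (18.8 to 23.4), amid a further group of annotated starts from 1939 to 2143 bp, and another at 2371 bp reached 9.82 (8.32 to 11.5). Of the 39 distinct starts annotated for Clu, those at -15726 bp and 6192 bp lay in no interval. Past the gene end, at 13851 bp, an interval reached 6.81 (5.57 to 8.24), and intervals at -1512 bp and, in intron 6, at 9554 bp reached 4.78 (3.75 to 6.002) and 3.93 (3.01 to 5.05).

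**Figure D2:**
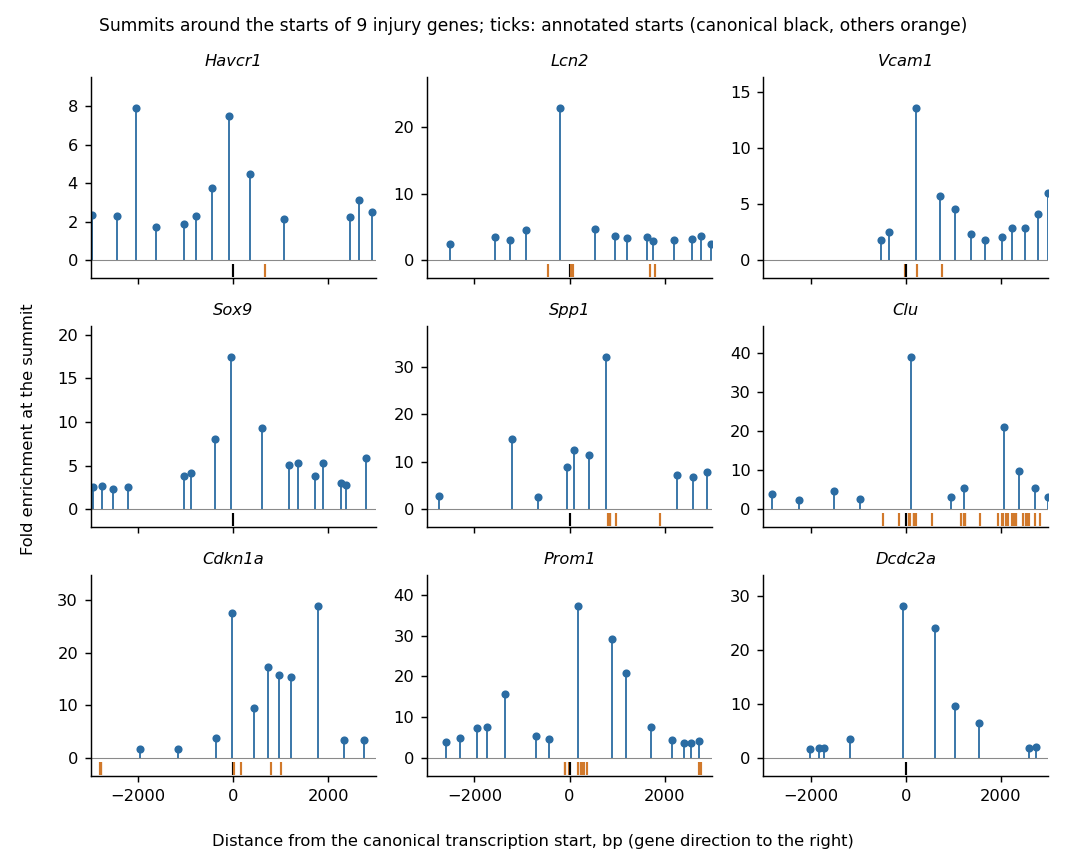
Fold enrichment at each summit (vertical axis, its own scale in each panel) against the distance from the canonical start in bp, with the gene running to the right; ticks under the axis are annotated starts, black for the canonical one and orange for the others. Within the 3 kb shown on either side, the highest summit stands at -48 bp in Sox9, -63 bp in Dcdc2a and 773 bp in Spp1, and in Cdkn1a a summit at 1779 bp is level with that at -37 bp.

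Sox9 (ENSMUSG00000000567.7), a transcription factor of tubule regeneration, showed the simplest pattern. Its promoter interval, chr11:112671816-112676348 on the plus strand, peaked at -48 bp with a fold enrichment of 17.5 (15.5 to 19.8, 267 reads), at percentile 31.7 of all promoters. Flanking summits at -385 bp and 598 bp reached 8.05 (6.70 to 9.60) and 9.36 (7.90 to 11.02). The only other interval in the Sox9 region, at -2770 bp, reached 2.62 (1.88 to 3.56), and its fold enrichment was at percentile 13.5 among the strongest intervals away from a promoter. The distant enhancers for which this locus is known in other tissues lie beyond the region taken. The lncRNA BC006965, on the opposite strand, overlaps both of these intervals.

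Cdkn1a (ENSMUSG00000023067.16), the p53 target p21, had a broad promoter interval with a pair of level summits. The interval, chr17:29312092-29316779 on the plus strand, held a summit at -37 bp with a fold enrichment of 27.6 (25.1 to 30.4, 421 reads) and one in intron 1 at 1779 bp with 28.9 (26.2 to 31.7, 440 reads). The difference between them lay within counting error. Summits at 734, 964 and 1219 bp in between reached 17.2 (15.2 to 19.4), 15.8 (13.9 to 17.97) and 15.4 (13.5 to 17.5), and alternative starts lay just after those at 734 and 964 bp, at 798 and 1013 bp. Past 1779 bp the interval held 4 more summits, none above 6.48 (5.27 to 7.88). The highest summit was at percentile 48.0 of all promoters.

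Outside this interval Cdkn1a was nearly closed. The remaining 4 intervals of the region reached at most 2.36 (1.66 to 3.25), in coding exon 2 at 4669 bp, followed by 2.03 (1.39 to 2.87) in the 3′ UTR at 6569 bp and 1.83 (1.23 to 2.64) at -1961 bp. The upstream starts between -2802 and -2785 bp, from which alternative p21 transcripts are annotated, lay in no interval. The noncoding transcripts Dino and Gm64878 run across the promoter on the opposite strand, and accessibility has no strand, so their share cannot be told apart.

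Dcdc2a (ENSMUSG00000035910.17), which encodes a doublecortin-domain protein of microtubules and cilia, was, beside Havcr1, the other gene of the set whose strongest interval stood away from the promoter. The promoter interval, chr13:25238684-25241634 on the plus strand, peaked at -63 bp with 28.2 (25.6 to 31.0, 430 reads), at percentile 47.0 of all promoters. An interval in intron 4 at 51455 bp reached 39.2 (36.1 to 42.5, 598 reads) and one in intron 6 at 60238 bp reached 37.8 (34.8 to 41.0, 576 reads). Both lay above the promoter by more than counting error, and their own counting intervals overlapped. The intron 4 summit was at percentile 91.8 among the strongest intervals away from a promoter over all genes. The region held 59 intervals against a median of 4 over all genes, and the strongest of many intervals tends to be higher.

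Strong intervals followed one another along the part of Dcdc2a before these summits. In intron 2 the summits at 27796 bp and 36044 bp reached 25.3 (22.9 to 28.0) and 24.8 (22.4 to 27.4), and an interval of 7566 bp peaked at 43299 bp with 16.0 (14.04 to 18.1). That interval also held the alternative start at 40876 bp, where the nearest summit reached only 3.47 (2.61 to 4.53). In the whole set, 18 of the 140 intervals away from a promoter reached a fold enrichment of 5. Over all intervals of the list, those at promoters included, 24.5% did. Of the 18, Dcdc2a, the longest gene with 59 intervals, held 9 and Havcr1, with 21 intervals, held 5. Spp1 held 2, and Clu and Prom1 held 1 each. Intron 7 of Dcdc2a, past these summits, held 23 intervals, of which that at 95593 bp reached 10.5 (8.92 to 12.2).

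**Figure D3:**
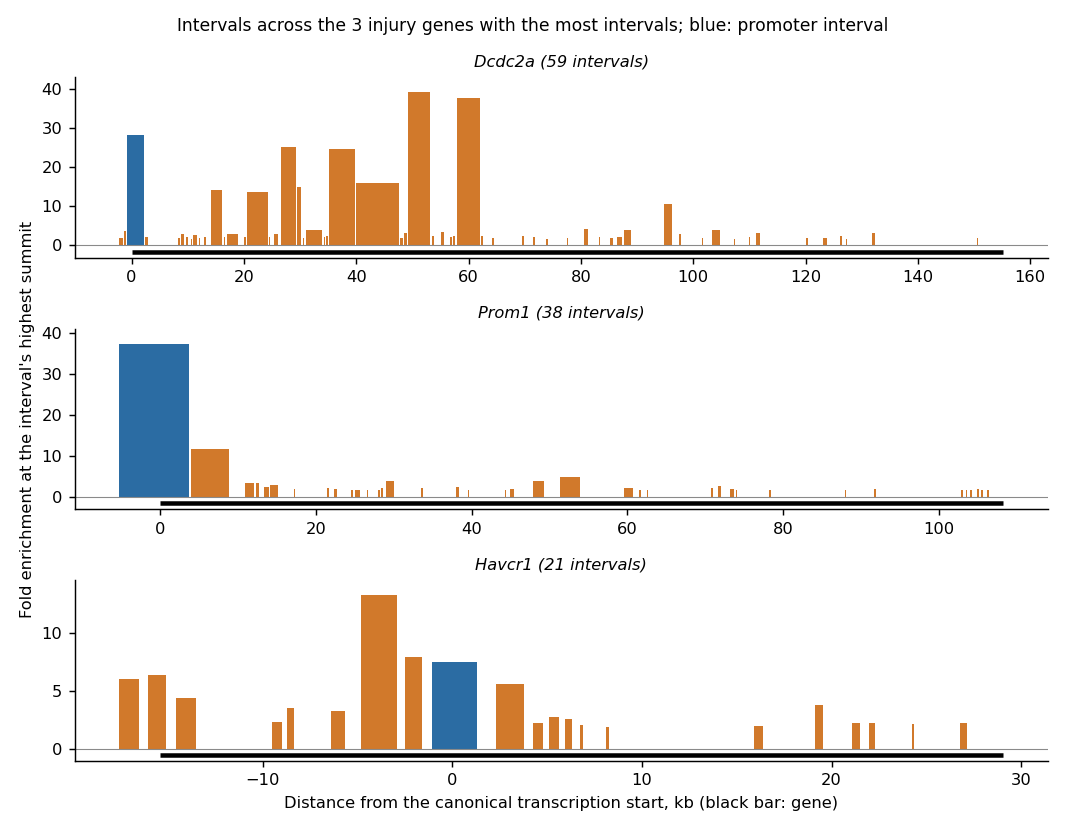
Fold enrichment at the highest summit of each interval (height of the bar; its width is the width of the interval) against the distance from the canonical start in kb, for Dcdc2a, Prom1 and Havcr1, with the promoter interval in blue and the gene as a black bar. Dcdc2a reaches 39.2 in intron 4, above its promoter at 28.2, while Prom1 falls from 37.3 at the promoter to low values along its body and Havcr1 is highest at -4251 bp.

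When the promoter intervals were put in order, the sequence ran from Clu through Prom1, Spp1, Cdkn1a, Dcdc2a, Lcn2, Sox9 and Vcam1 to Havcr1. In 5 of the 8 neighbouring pairs the counting intervals overlapped. They did not overlap between Dcdc2a and Lcn2, between Lcn2 and Sox9, or between Vcam1 and Havcr1. The order therefore separates Havcr1 from the rest and Lcn2 from its neighbours, and leaves the upper 5 genes as a graded series.

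Most of the 151 intervals were weak. Their median fold enrichment was 2.36, against 2.55 over all intervals, and their median width was 444 bp against 434 bp. A q under 1e-05 was reached by 75 of them (49.7%; 54.9% of all intervals) and a fold enrichment of at least 5 by 27 (17.9%; 24.5% of all intervals). Dcdc2a and Prom1, the longest genes, held 97 of the intervals (64.2%), and 116 of the 151 had their summit in an intron. The density of intervals ranged from 2.33 per 10 kb in Sox9 to 4.53 in Lcn2, against quartiles of 0.587 and 3.49 over all genes. Of the 96 distinct starts annotated for the 9 genes, 82 lay inside an interval (85.4%; 78.8% of the starts of all protein-coding genes). Clu alone accounts for 37 of the 82, and the share over the other genes was 78.9%.

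The motif search described the windows of 201 bp around the highest summit of each gene. AP-1, the Fos and Jun dimer of stress and growth signalling, had matches in 5 of the 9 windows. Over all 18102 genes with an interval 6.85% of such windows held a match, and over all intervals 12.4%. NF-kB, the factor of inflammatory signalling, matched in 3 of 9, at Lcn2, Vcam1 and Cdkn1a, against 3.88% of genes and 3.42% of intervals. TATAAA occurred in 2 of 9, against 3.26% of genes, and CCAAT in 3 of 9, against 31.8%.

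SP/KLF, bound by the zinc finger factors of CpG-rich promoters, matched in 2 of 9 windows against 51.4% of genes. STAT matched in 1 window, at Havcr1, against 4.49% of genes, and this match was lost with a window of 100 bp. TEAD matched in 1 window, at Lcn2, against 9.15% of genes. SOX (AACAAT), HNF1 and p53 matched in none, where 3.06%, 0.0829% and 0.0331% of genes held a match. Motifs were searched on both strands without mismatches, and 9 windows give coarse shares. A match is a run of letters and does not show that the factor was bound.

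**Figure D4:**
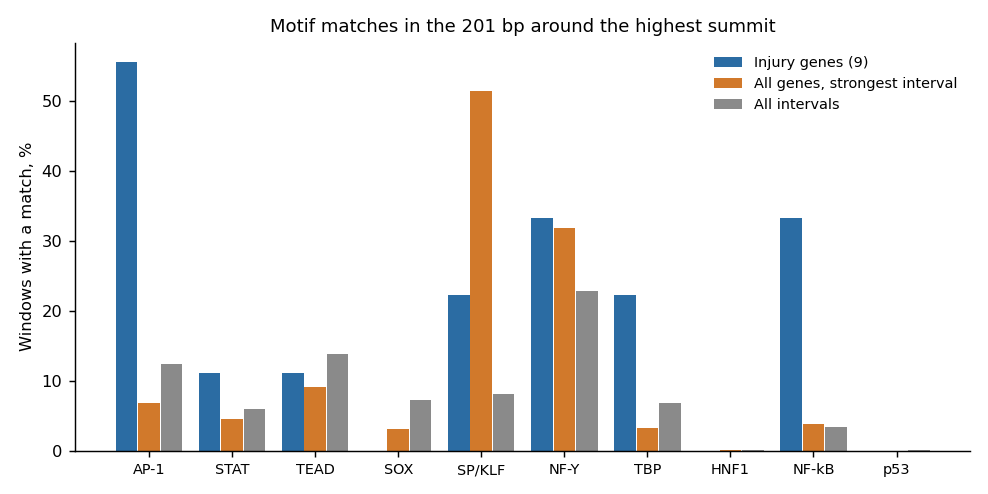
Percent of 201 bp windows around the highest summit that hold each motif (vertical axis), for the 9 injury genes (blue), for the strongest interval of all genes (orange) and for all intervals (grey); NF-Y stands for the CCAAT box and TBP for TATAAA. The injury genes stand above both backgrounds for AP-1, NF-kB and TATAAA, at 5, 3 and 2 of 9 windows. They also do for STAT, at 1 of 9, and narrowly for CCAAT, at 3 of 9 against 31.8% of the strongest intervals. For SP/KLF they stand below the strongest intervals of other genes.

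The base composition of the promoters split the set. In the window from 250 bp before to 50 bp after the canonical start, the ratio of observed to expected CpG was 0.105 in Vcam1, 0.120 in Spp1, 0.124 in Lcn2 and 0.216 in Havcr1. It was 0.605 in Sox9, 0.777 in Cdkn1a and 0.790 in Dcdc2a, with Clu at 0.354 and Prom1 at 0.398, and the median over all promoters was 0.517. The genes for surface and secreted proteins were thus below the median, and the nuclear regulators and Dcdc2a above it. For Spp1 this window lies at the canonical start and not at the downstream group of starts. The highest promoter summits of Vcam1, Prom1 and Clu, at 204, 183 and 113 bp, lay past the end of the window too. So did that of Cdkn1a at 1779 bp, which was level with a summit at -37 bp inside it. Promoter height did not follow this split throughout. Clu and Prom1, below the median, had the highest promoters, at 39.1 and 37.3, and Lcn2 at 22.9 stood above Sox9 at 17.5. The 32.2 of Spp1 lies outside the window, and its highest summit within 250 bp of the canonical start reached 12.4. By such summits Havcr1, Spp1 and Vcam1, at 7.46, 12.4 and 13.6, lay below Sox9, Cdkn1a and Dcdc2a, at 17.5, 27.6 and 28.2. SP/KLF matched in 4 of these 9 windows against 42.5% of all promoters, and AP-1 in 2, at Sox9 and Vcam1, against 7.15%.

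A wider list of 26 genes of tubule injury and repair, among them keratins, annexins, cytokines and immediate early genes, gave a similar picture. All 26 had a promoter interval, 25 of them with a fold enrichment of at least 5, and in 20 it was the strongest interval of the gene. Their median of 27.8 was near the 28.2 of the 9 genes and the 30.1 of all genes. The strongest promoters were those of Tnfrsf12a, the receptor of the cytokine TWEAK, at 68.1, of Hmox1, which degrades haem, at 58.5, and of the stress factor Atf3 at 55.4. The weakest were those of Runx1 at 3.08, Krt20 at 5.43 and Anxa1 at 6.09. Runx1 resembled Havcr1 and Dcdc2a in that its strongest interval, at 39.2, stood away from the canonical promoter.

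Marker lists placed these values on a scale of cell types. Promoter intervals were present at 11 of 12 proximal tubule genes, with a median fold enrichment of 15.1 and a range from 5.30 to 35.1 against 28.2 in the 9 injury genes. Genes of other organs had promoter intervals in 7 of 10 cases, but from 1.90 to 3.67 and with none at 5. The 9 injury genes, the proximal tubule genes and the collecting duct genes, which ranged from 4.19 to 23.0, lay above that range as far as they had a promoter interval. The wider injury list overlapped it at its lowest gene, Runx1. So did the genes of the thick ascending limb and distal tubule, from 3.47 to 20.8, of podocytes, from 3.14 to 34.4, and of stroma, from 2.62 to 10.9. Havcr1, at 7.46, stood above each gene of other organs with a promoter interval. This separation held for promoters only. Away from the promoter, the 13.2 of Havcr1 lay below Sftpc at 19.0 and Gfap at 16.8 and above the remaining genes of other organs with such an interval. The median of the strongest interval away from the promoter was 6.74 in other organs and 6.81 in the 9 injury genes. Endothelial genes ranged from 2.03 to 9.76 with a median of 3.57, and 3 of 6 immune genes had a promoter interval, from 1.90 to 27.6. The part of such cells in the values of Vcam1, which endothelium also uses, was not tested.

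**Figure D5:**
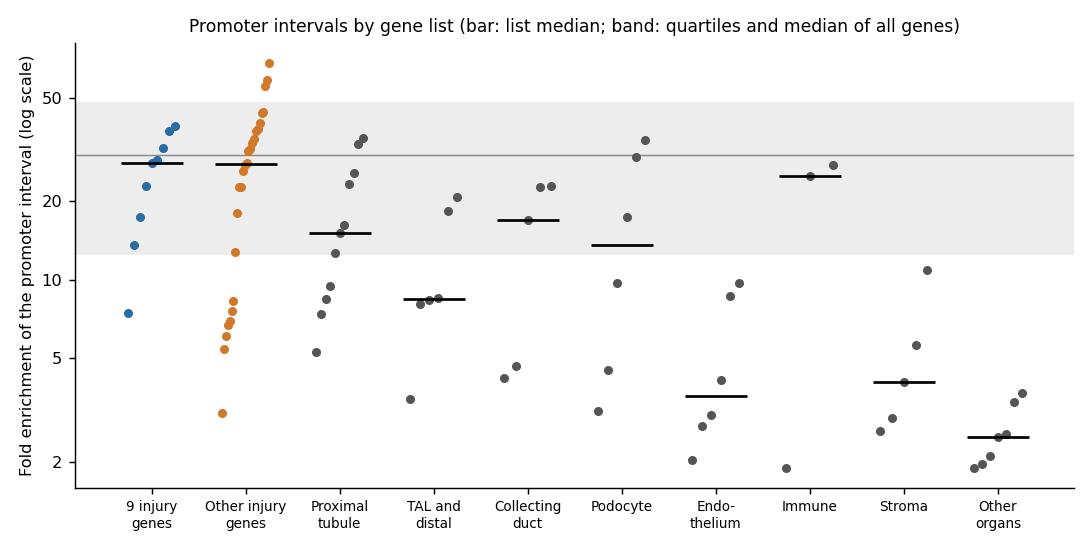
Fold enrichment of the promoter interval on a log scale for the 9 injury genes (blue), 26 other injury genes (orange) and marker lists of kidney cell types and other organs (grey); each point is a gene with a promoter interval, the bars are list medians and the band gives the quartiles and median of all genes. The medians are 28.2 and 27.8 for the injury lists, 15.1 for the proximal tubule and 2.49 for other organs.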

How the data were processed

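ATAC-seq libraries of kidney cortex nuclei were grouped by genotype from their labels, 3 WT and 3 Acly cKO. Per the methods and labels, the authors ran fastp and Bowtie2 2.3.4.3 against mm39, discarded duplicates and ambiguously placed reads, and called peaks with MACS3 3.0.0. The call pools all libraries by its peak names, and BEDTools 2.29.1 served to drop blacklisted and non-standard sequence. The parameters printed in the methods name a shift of the read ends but the sign cannot be read from them; of 1566 CTCF-type matches within 600 bp of strong summits, 69.1% lay within 50 bp of it.

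For every summit the deposited list holds a fold enrichment, which is a linear ratio to the background, and a −log10 q, both written by the authors' caller. The deposited summits before filtering hold the same −log10 q, and the filter removed no summit at the 9 genes. Each fold enrichment had a single q, and all 129 values with a −log10 p under 100 matched the tail of a Poisson distribution within 2%, so reads were recovered from the fold.

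Rows sharing chromosome, start and end were joined into 1 interval, which took the values of the summit with the highest −log10 q. Genes, starts and exons came from GENCODE M39 on GRCm39; of 19123 genes placed on both builds, 80.0% had a summit near the start in GRCm39 and 37.3% in GRCm38. Sequences were read from the GRCm39 genome. The p53 motif was searched as a pair of decamers 0 to 13 bases apart. Named were the 9 genes with the promoter interval and up to 3 strongest others each, and the 3 strongest and 3 weakest promoters of the wider list; other summits and intervals were named after their values were seen. The genes, lists and motifs were chosen with earlier results of these data known. No comparison was tested, since no column belongs to a library. The motif search was tested on simulated data, where all 2000 planted matches were found. The placement of starts relative to summits was added after the values were seen. Python 3.11.15 was used with numpy 2.4.6, pandas 2.3.3, scipy 1.17.1 and matplotlib 3.10.9.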

Additional observations from a re-analysis of the deposited data

How the results depend on the processing

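The number of intervals at the 9 genes depended on what was counted. It was 484 with summits in place of intervals, 75 with a q under 1e-05 and 27 with a fold enrichment of at least 5, and stayed within 1.5 times of 151 with a q under 0.01, with 10 kb on either side of the genes, and with at least 50% of each interval inside the gene region. The median fold enrichment of the strongest intervals moved to 32.2 with 10 kb on either side, because an interval with a fold enrichment of 46.1 at -8349 bp from the Lcn2 start, which holds the start of Ptges2, then counted for Lcn2, and 6 of 9 genes instead of 7 had their strongest interval at the promoter. The number of genes with a promoter interval was 9 with windows of 500 bp and 2 kb, with a q under 1e-05, with a fold enrichment of at least 5 and with any annotated start, and 8 when the highest summit had to lie in the window, which left out Cdkn1a. With a window of 100 bp around the highest summit, AP-1 matched in 4 of 9 genes (4.60% of all genes), NF-kB in 2 (2.06%) and STAT in 0 instead of 1 (2.26%). Of 64 alternative values for single genes and motifs, 28 moved by more than 1.5 times, mostly with summits counted or a limit on fold enrichment. No paired analysis was possible because the deposited call pools all libraries and no result comes from a test, and for the same reason no replicate could be left out. In the weakest intervals 25 reads stood against a background of 14.3, and how far depth limits them was not tested.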

Other observations

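The highest promoter summit of the 9 injury genes was also placed relative to annotated starts, where 9 genes give only a coarse share. In 7 of the 9 a start of the gene lay within 100 bp after the summit, while this held for 59.3% of the 16499 genes with a promoter interval. Over all genes the start was the canonical one in 27.1%, and among the injury genes it was the canonical one in Havcr1, Sox9 and Dcdc2a.

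Itgb6, the beta subunit of an epithelial integrin that activates TGF-beta, and Il34, a cytokine that acts on the receptor CSF1R, shared with Havcr1 and Dcdc2a a strongest interval away from the canonical promoter. The values were 59.0 against a promoter of 8.31 for Itgb6 and 39.2 against 31.9 for Il34. Of the markers of kidney cell types, Slc12a3, the thiazide-sensitive cotransporter of the distal convoluted tubule, had 38.2 away from a promoter of 8.38, and Synpo, a podocyte protein of the actin cytoskeleton, had 59.4 away from a promoter of 29.5. These genes were picked after their values were seen, and the trait is common. Krt20, Ccl2 and Anxa1 of the wider list and Cubn, Slc13a3 and Hnf4a of the proximal tubule list had it too. Among all genes with an interval, the strongest stood at the promoter in 70.1%.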
